A study of Caenorhabditis elegans with 2 samples.

Results

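The CLIP peaks described here lay on the nuclear chromosomes of Caenorhabditis elegans but touched no gene locus of the authors' expression table. A peak is a stretch of genome, on 1 strand, where reads from RNA bound to the pulled-down protein pile up. Of 183012 nuclear peaks in the authors' lists, 16118 overlapped none of the 42518 locus rows of that table by even 1 base. They were 6949 of 77868 nuclear peaks in the CAR-1(FL) list, or 8.92% (exact 95% binomial interval 8.72 to 9.13), and 9169 of 105144 in the CAR-1(dSm) list, or 8.72% (8.55 to 8.89). These intervals overlap, and like all intervals below they cover counting error only. The table gives loci without strand, so a peak within a gene on the opposite strand counted as inside.

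Both libraries were made by seCLIP-seq, a crosslinking and immunoprecipitation method with single-end sequencing, with GFP-trap beads, which carry a small antibody fragment that binds GFP. The group CAR-1(FL) was strain CZ25180 and the group CAR-1(dSm) was strain CZ26430, with 1 library each. No replicate exists, so each difference describes these libraries and not the strains. The sources used here do not give the stage or sex of the animals, the rest of their genotype, the promoter of the tagged protein, what dSm removes or alters, or the RNA extraction.

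CAR-1 belongs to the LSm14 proteins, which bind RNA in germ granules and processing bodies, where mRNAs are stored silent or decayed. An mRNA runs on past its stop codon into a 3′ untranslated region (UTR), where proteins that control stability and translation often bind. CLIP reads keep the strand of the RNA, so a peak just past a gene can be placed before or after it along the direction of transcription. Whether the loci of the expression table reach the ends of transcripts is not stated in it. Of 79 histone (his) loci, 68 (86.1%) had a length that is a multiple of 3, as did all 31 major sperm protein (msp) loci. Genes of these families mostly lack introns, so such a length would fit a coding sequence without UTRs, but 11 his loci did not have one. Loci of other families were not tested. Which peaks lie in UTRs was not tested, because no transcript annotation of the build of the files, ce10, was used here.

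Most of the peaks outside loci lay close after a gene, on that gene's strand. The median distance from a peak to the edge of the nearest locus was 133 bases in the CAR-1(FL) list (interquartile range 65 to 251) and 129 bases in the CAR-1(dSm) list (59 to 252), where 1 base means that they abut. Within 500 bases of a locus lay 6295 (90.6%) and 8273 (90.2%) of them. Only 300 (4.32%) and 444 (4.84%) lay beyond 1000 bases, and 21 and 37 beyond 5000.

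Each locus was given the strand of the peaks inside it, where at least 2 peaks overlapped that locus alone and at least 80% of them were on 1 strand. This set 8507 of 8584 such loci (99.1%). Of the 6286 CAR-1(FL) peaks whose nearest locus had a strand, 5242 (83.4%) lay downstream of it on the same strand, past its 3′ edge. For CAR-1(dSm) it was 6933 of 8232 (84.2%). The same strand upstream held 713 (11.3%) and 888 (10.8%). The opposite strand held 291 and 349 peaks past the 3′ edge, and 40 and 62 before the 5′ edge. The position was thus nearly the same in both lists.

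**Figure D1:**
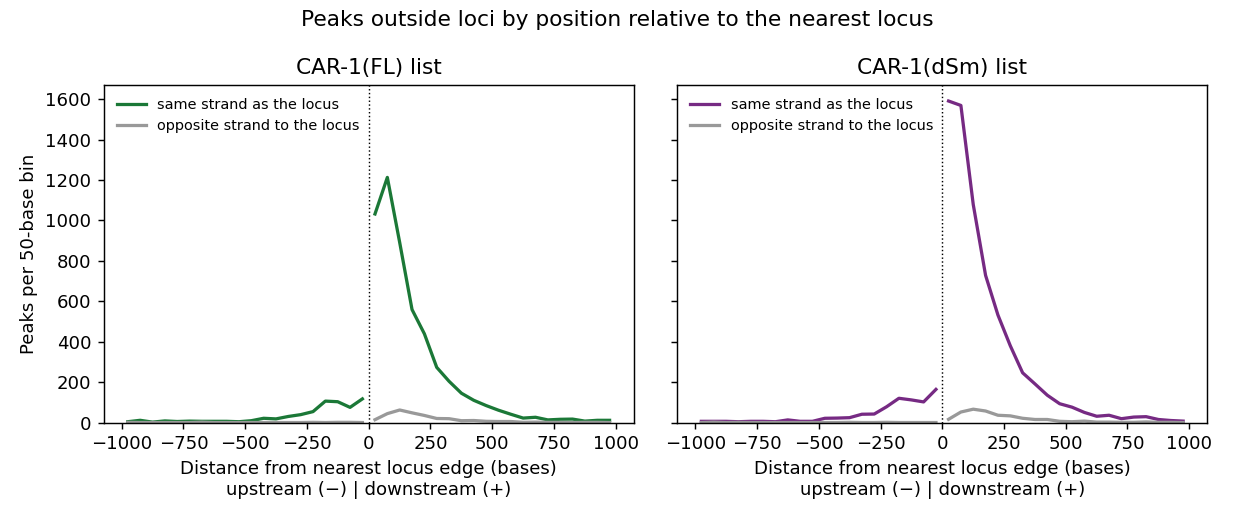
Number of peaks outside loci per 50-base bin (vertical axis) by distance in bases from the edge of the nearest locus (horizontal axis; upstream negative, downstream positive), out to 1000 bases, for the CAR-1(FL) list (left) and the CAR-1(dSm) list (right). Coloured lines are peaks on the strand of the locus and grey lines are peaks on the opposite strand. In both lists the coloured line is far higher downstream than upstream and falls off within 500 bases.

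Strand and side went together with distance. In the CAR-1(FL) list the same-strand downstream share was 89.9% of assigned peaks within 100 bases, 82.2% from 101 to 250 bases, 74.0% from 501 to 1000 bases and 37.1% of 175 peaks from 1001 to 5000 bases. Among CAR-1(dSm) peaks it was 90.4%, 83.3%, 77.3% and 36.3% of 234 peaks over the same distances. Beyond 5000 bases only 15 and 21 peaks were assigned, with 13.3% and 19.0% downstream on the same strand. Past 1000 bases, same-strand upstream peaks were about as many as downstream ones, at 40.6% and 37.2% of assigned peaks from 1001 to 5000 bases.

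The nearest locus need not be the gene a peak belongs to. Looking along the peak's own strand, a same-strand locus ended within 500 bases before 5646 CAR-1(FL) peaks (81.2%) and 7358 CAR-1(dSm) peaks (80.2%). A same-strand locus began within 500 bases after the peak, with none ending before it, for 346 (4.98%) and 462 (5.04%). Neither was found for 957 (13.8%) and 1349 (14.7%). Of the 331 and 411 peaks whose nearest locus was on the opposite strand, 204 and 238 had a same-strand locus ending within 500 bases before them.

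On the chromosomes themselves the strands were close to even. The plus strand held 3661 of the CAR-1(FL) peaks outside loci, or 52.7% (51.5 to 53.9), against 50.8% of the peaks inside loci. It held 4871 of the CAR-1(dSm) peaks, or 53.1% (52.1 to 54.2), against 50.5% inside. Chromosome II had the highest plus share in both lists, at 56.6% and 56.7%.

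The X chromosome had the largest share of its peaks outside loci. It held 12.1% (11.5 to 12.8) of its CAR-1(FL) peaks and 11.4% (10.9 to 11.95) of its CAR-1(dSm) peaks outside, with 1187 and 1723 peaks. The autosomes ranged from 8.14% on I to 9.05% on V in the CAR-1(FL) list, and from 7.73% on I to 8.77% on V in the CAR-1(dSm) list. The X interval overlapped that of no autosome in either list. In the CAR-1(dSm) list the X peaks also had the highest median log2 fold of CAR-1(dSm) over CAR-1(FL), at 0.51, but X peaks inside loci were just as high, at 0.56.

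**Figure D2:**
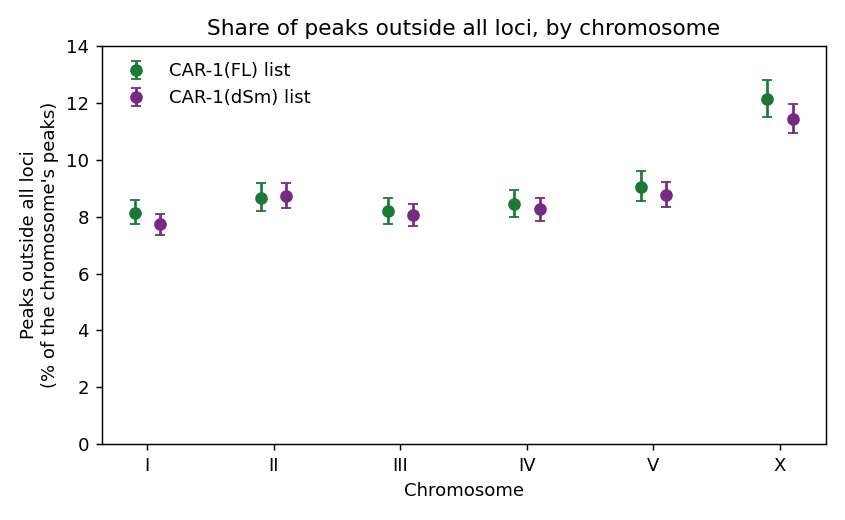
Share of each chromosome's peaks that overlap no locus (vertical axis, percent), by chromosome (horizontal axis), for the CAR-1(FL) list (green) and the CAR-1(dSm) list (purple). Points are shares and bars are exact 95% binomial intervals; X stands above the 5 autosomes in both lists.

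Peaks outside loci were of ordinary width but less often very narrow or very broad. Their median width was 43 bases in the CAR-1(FL) list (interquartile range 29 to 58, extremes 1 and 194) and 42 bases in the CAR-1(dSm) list (29 to 57, extremes 1 and 179), against 40 bases inside loci in both lists. Peaks under 10 bases made up 2.75% and 3.13% outside against 7.31% and 7.08% inside. Peaks over 100 bases made up 2.32% and 1.82% outside against 4.11% and 3.73% inside. The widest CAR-1(FL) peaks were 194 bases after ptr-24, a patched-related membrane protein gene (X:13347804-13347997, plus strand), 184 bases by H21P03.11 and 170 bases by R05F9.11. The widest CAR-1(dSm) peaks were 179 bases after rin-1, 178 bases before helq-1, a DNA helicase gene, and 168 bases after acs-1, an acyl-CoA synthetase gene.

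Peaks outside loci were found in both lists more often than peaks inside. An overlap of 1 base on the same strand with a peak of the other list was seen for 5689 CAR-1(FL) peaks, or 81.9% (80.9 to 82.8), against 68.0% inside loci. It was seen for 5959 CAR-1(dSm) peaks, or 65.0% (64.0 to 66.0), against 52.3% inside. Shared peaks were wider, with medians of 46 against 29 bases in the CAR-1(FL) list and 48 against 32 bases in the CAR-1(dSm) list. The peaks without a partner leaned further to their own library, at median log2 folds of 0.55 and 0.82, than those with one, at −0.33 and 0.20. A peak without a partner is one not listed in the other library, so this lean is built into the split. Peaks inside loci had it too, at 0.73 and 0.82 without a partner against −0.23 and 0.06 with one. Their shared peaks were also wider, at 45 against 31 and 48 against 33 bases. Peaks outside loci also held more reads of their own library, with medians of 11 against 8 inside loci for CAR-1(FL) and 21 against 14 for CAR-1(dSm) where reads could be recovered, which leaves out peaks at a −log10 p of 0, and the part of depth in the overlap was not tested.

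Many sites held few peaks, and some held a long run. Joining peaks of both lists on 1 strand with gaps of at most 100 bases gave 5961 clusters, with a median of 2 peaks and a median span of 64 bases. A single peak made up 2133 of them (35.8%), and 123 held at least 10. As both lists were joined, a cluster of 2 can be 1 site listed in each library. Of the 5961, 3631 (60.9%) held peaks of both lists, 669 of CAR-1(FL) alone and 1661 of CAR-1(dSm) alone. The CAR-1(dSm) list is the longer one, with 9169 peaks outside loci against 6949. Clusters of peaks inside loci were not counted, so the last 2 values are no trait of these regions.

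Of the 5 clusters with the most peaks, 4 lay past protein-coding genes. The largest covered 1280 bases after ncl-1, which encodes a TRIM-NHL protein that limits nucleolar size, with 11 CAR-1(FL) and 18 CAR-1(dSm) peaks (III:7736329-7737608, plus strand). After akap-1, an A-kinase anchor protein gene, 25 peaks covered 1123 bases (III:6365392-6366514, plus strand). After msi-1, which encodes the RNA-binding protein Musashi, 20 peaks covered 948 bases (III:3964674-3965621, minus strand). After ifet-1, the eIF4E-transporter homologue that represses translation in germ granules, 19 peaks covered 863 bases (III:4471482-4472344, minus strand). Not all were nearest to the gene named: 19 of 29 were at ncl-1, 14 of 25 at akap-1 and 17 of 19 at ifet-1. The others were nearer to the locus across the gap, which was ZK112.5, C56G2.15 and F56F3.4 in that order.

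All 4 clusters had a median below 0. Their median log2 folds of CAR-1(FL) over CAR-1(dSm) were −0.59 at ncl-1, −0.36 at akap-1, −0.52 at msi-1 and −0.39 at ifet-1, against −0.29 over all peaks outside loci. At akap-1 alone of the 4, 3 CAR-1(dSm) peaks had a log2 fold of at least 1 with a −log10 p, as the authors give it, of at least 3. Inside the loci the medians were −0.997 for ncl-1, −0.26 for akap-1, −0.39 for msi-1 and 0.00 for ifet-1. The cluster medians cover all peaks of a cluster, also those nearer to the locus across the gap.

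The remaining one of these clusters was in the ribosomal DNA on chromosome I, where 22 peaks covered 160 bases (I:15066185-15066344, plus strand). It lay in the gap between the ribosomal RNA loci rrn-2.1 and rrn-1.2, which held 44 peaks, all on the plus strand and all nearest to rrn-2.1. In the RefSeq gene order (assembly WBcel235), rrn-3.1, the gene of the large-subunit ribosomal RNA, and F31C3.14 lie between these loci. All 27 CAR-1(dSm) peaks of the gap leaned to CAR-1(dSm), with log2 folds from 0.11 to 1.14, and all 17 CAR-1(FL) peaks were lower in CAR-1(FL), from −1.13 to −0.13. The peak there with the highest −log10 p, 44.1 (I:15066204-15066228), held 3630 reads in the CAR-1(dSm) library and 1782 in the other, 1.50-fold higher per library read in CAR-1(dSm). Another (I:15065421-15065441) held 1109 and 370, 2.20-fold higher. Ribosomal RNA genes are near-identical repeats, so how reads were assigned among copies makes these values uncertain.

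Further gaps with many peaks also held a gene of the RefSeq order that is no locus in the table used here. The gap between sgn-1 and F07H5.13 held the most peaks of all, 62, every one on the plus strand (II:8784714-8789689), and RefSeq places F07H5.3, F07H5.4 and F07H5.5 in it. Its flanks sgn-1 and F07H5.13 were among the loci nearest to the most peaks, with 27 and 41. None of the 27 was placed downstream on the strand of sgn-1, which was set from only 2 inside peaks. F07H5.13 had 0 inside peaks, so its strand was not set and its 41 peaks could not be placed. The gap between C53C7.6 and C53C7.3 held 39 peaks, with C53C7.5, C53C7.t1 and C53C7.t2 in it. The gap between drh-1 and C01B10.3 held 35, with drh-2 in it. Among peaks in gaps that could be placed in the RefSeq order, 858 of 6664 (12.9%) and 1192 of 8787 (13.6%) lay in a gap with such a gene.

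Long gaps also gave loci many nearest peaks. The ERG-type potassium channel gene unc-103 was nearest to 29 peaks, of which 3 lay downstream of it on its strand, and the farthest was 5626 bases away. The Musashi gene msi-1 was nearest to 33, of which 20 were the downstream ones above. The gap after daf-16, the FOXO transcription factor of insulin signalling, held 26 peaks, all on the plus strand.

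The peaks farthest from any locus held few reads. In the CAR-1(FL) list the 3 farthest all lay between C30F2.5 and ZK1073.2 on X, at 9991, 8912 and 8561 bases, and the first and the last held 3 CAR-1(FL) reads and 2 CAR-1(dSm) reads. The farthest CAR-1(dSm) peak lay 22320 bases from 21ur-9017, a piRNA locus, with 3 CAR-1(dSm) reads and 1 CAR-1(FL) read. The next, at 11812 and 11698 bases, were nearest to cdh-7, a cadherin gene, on the opposite strand.

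Direction was then read from the authors' log2 fold, this library over the other, and their −log10 p, which is above 0 only where the fold is positive. Each list holds peaks called in its own library, so its folds are not a symmetric sample. In the CAR-1(FL) list, peaks outside loci leaned away from that library, with a median log2 fold of −0.23 (interquartile range −0.58 to 0.20) against 0.03 inside loci, and 35.8% were positive against 51.6%. For CAR-1(dSm) the median was 0.36 both outside and inside, and 73.3% were positive against 69.8%. Turned the same way and pooled, the median of CAR-1(FL) over CAR-1(dSm) was −0.29 outside and −0.20 inside.

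Strong differences ran mostly to CAR-1(dSm), outside loci as over all nuclear peaks. At thresholds of 3 for the −log10 p and 3 for the log2 fold, which is 8-fold, none of the 6949 CAR-1(FL) peaks passed, where 0.0167% of all nuclear peaks of that list did. Of the 9169 CAR-1(dSm) peaks 7 passed (0.0763%), where 0.119% of all nuclear peaks did. At a log2 fold of 1, which is 2-fold, 2 CAR-1(FL) peaks passed (0.0288%, against 0.22% of all nuclear peaks of the list). Among CAR-1(dSm) peaks 217 passed (2.37%, against 1.99% of all nuclear peaks). The CAR-1(dSm) shares were thus near the background at both folds.

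**Figure D3:**
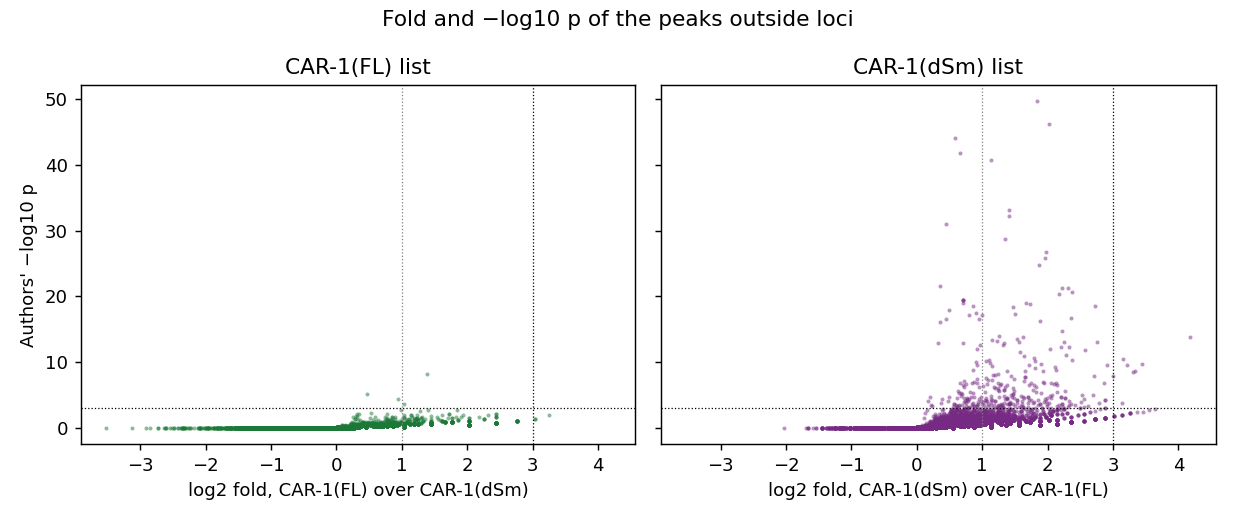
The authors' −log10 p (vertical axis) against the authors' log2 fold of the library over the other (horizontal axis) for each peak outside loci of the CAR-1(FL) list (left) and the CAR-1(dSm) list (right). Dotted lines mark a −log10 p of 3 and log2 folds of 1 and 3; the CAR-1(FL) list reaches 8.24 and the CAR-1(dSm) list 49.7.

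Of the 7 peaks past 8-fold, 4 were by genes of neuropeptide signalling, in which short peptides are cut from precursors, amidated and released. All 7 rested on 7 or fewer reads in CAR-1(FL). Past E02A10.4, a peak at V:12566085-12566158 (minus strand, 122 bases away) held 74 CAR-1(dSm) reads (exact 95% Poisson interval 58.1 to 92.9) and 3 CAR-1(FL) reads (0.619 to 8.77). Per library read CAR-1(dSm) was 18.1-fold higher, at a −log10 p of 13.8. The adjoining peak at V:12566039-12566084 held 54 and 4 reads, 9.93-fold higher. The 2 E02A10.4 peaks lie side by side and are not independent.

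Of the FMRFamide-like peptide genes, flp-13, which acts in sleep, had a peak at IV:7697006-7697119 (minus strand, 29 bases past the locus) with 85 CAR-1(dSm) reads (67.9 to 105) and 7 CAR-1(FL) reads (2.81 to 14.4), 8.93-fold higher in CAR-1(dSm). By flp-26 a peak at X:7029523-7029580 (plus strand, 54 bases away) held 74 and 5 reads, 10.9-fold higher. The strand of the flp-26 locus was not set. Past nlp-13, a gene of the neuropeptide-like proteins, a peak at V:4237722-4237780 (plus strand, 4 bases away) held 76 and 6 reads, 9.31-fold higher. In each of these 3 peaks the Poisson intervals of both libraries, scaled to library totals, did not overlap. The peaks were chosen by fold and −log10 p from the same reads, so this is a description and adds no support.

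The remaining peaks past 8-fold were unlike one another. The pghm-1 gene encodes an enzyme that amidates peptides, and its peak lay before it, 7 bases upstream on the same strand (I:1808101-1808114). It held 55 CAR-1(dSm) reads and 4 CAR-1(FL) reads, 10.1-fold higher in CAR-1(dSm). By F55H2.5 a peak at III:9512789-9512854 (plus strand, 88 bases past the locus) held 24 and 2 reads, 8.82-fold higher, the fewest of the 7.

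**Figure D4:**
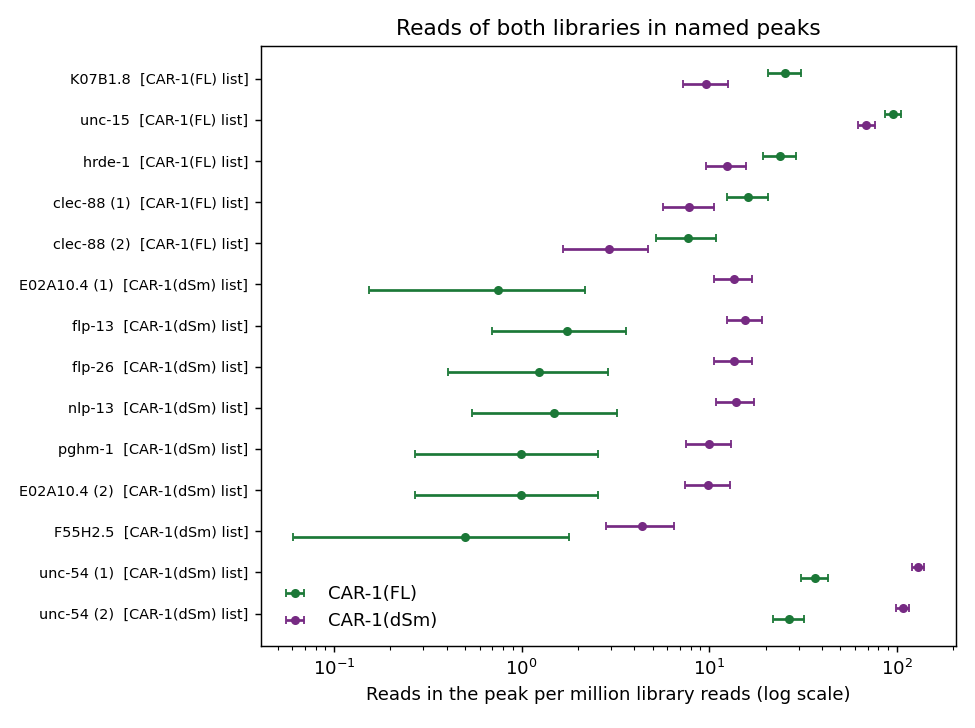
Reads in the peak scaled to library totals (horizontal log axis, per 1e+06 library reads) in the CAR-1(FL) library (green) and the CAR-1(dSm) library (purple) for named peaks outside loci, labelled by nearest locus and list. Bars are exact 95% Poisson intervals. In the upper 5 peaks, from the CAR-1(FL) list, green lies to the right, and in the lower 9, from the CAR-1(dSm) list, purple does.

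The neuropeptide genes were examined as families by name. By flp loci lay 21 CAR-1(FL) and 35 CAR-1(dSm) peaks, of which 20 and 33 were downstream on the same strand. Of the 35, 17 passed at a log2 fold of 1, as did 84 of 148 CAR-1(dSm) peaks inside flp loci. The highest −log10 p of the family outside loci, 18.5, was past flp-9 at IV:12754684-12754759, with 171 CAR-1(dSm) reads and 19 CAR-1(FL) reads, 6.62-fold higher in CAR-1(dSm). Past flp-11, another gene of sleep, the peak at X:4677419-4677466 held 175 and 25. The family's median log2 fold of CAR-1(FL) over CAR-1(dSm) was −2.27 outside and −1.96 inside in the CAR-1(FL) list, and −2.12 and −1.94 in the other. Peaks past flp genes and within them thus lay on the same side.

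The nlp family had medians of −1.51 outside and −1.27 inside in the CAR-1(FL) list, and −1.59 and −1.56 in the other. By nlp loci lay 18 and 30 peaks, 15 and 27 of them downstream on the same strand, and 9 of the 30 passed at a log2 fold of 1, as did 58 of 167 inside. Past nlp-11 at II:9689663-9689714, 119 CAR-1(dSm) reads stood against 18. Past nlp-47 the values were 82 and 8, and past nlp-3 they were 106 and 18. The ins family of insulin-like peptides had 7 and 10 peaks, and 1 passed, past ins-17 with 72 reads against 12. No peak of the flp, nlp or ins loci passed in the CAR-1(FL) list, inside or outside. Only 0.22% of all nuclear peaks of that list passed, so none among so few peaks is near that share.

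Among the other families, only col, rpl and rps loci clearly had a smaller share of peaks outside loci than the 8.92% and 8.72% over all nuclear peaks. For the cuticle collagens (col) 14 CAR-1(FL) and 22 CAR-1(dSm) peaks lay outside, 2.78% and 4.45% of the family's peaks, and none passed at a log2 fold of 1. Over all nuclear peaks 0.22% and 1.99% passed, so none among so few peaks is near those shares. Inside col loci 25 of 490 CAR-1(FL) peaks and 0 of 472 CAR-1(dSm) peaks passed. For the ribosomal proteins (rpl and rps) 5 and 10 peaks lay outside, 0.747% and 1.19%. Histone loci had 5 and 7, or 7.25% and 8.14%, near the share over all nuclear peaks, and all were downstream on the same strand. The msp loci had 1 and 3 beside 12 and 15 inside, or 7.69% and 16.7%, too few to tell from that share. None of the msp peaks was so placed. For the flp family 20.2% and 19.1% of the peaks lay outside.

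The 217 CAR-1(dSm) peaks past a log2 fold of 1 were by 135 loci, and 176 of them (81.1%) were downstream on the same strand. Their medians were 84 CAR-1(dSm) reads and 21 CAR-1(FL) reads, and the median fold was 3.16. The gene pdf-1, which encodes the pigment-dispersing factor neuropeptide, had 6, the most of any locus. Its peak at III:6909880-6909962 (minus strand, 71 bases past the locus) held 218 and 31 reads, 5.17-fold higher in CAR-1(dSm), and its 6 log2 folds ran from 1.77 to 2.75.

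Next came loci with 5 such peaks, which were unc-70, sgn-1, egl-3, cab-1 and, described below, unc-54. Those of sgn-1 lay in the gap between sgn-1 and F07H5.13, which held 9 such peaks in all. The one with the highest −log10 p there, 21.2 (II:8786776-8786839, plus strand), held 230 CAR-1(dSm) reads and 34 CAR-1(FL) reads. For unc-70, the beta-spectrin of the membrane skeleton, a peak at V:6890342-6890355 (plus strand, 23 bases past the locus) held 347 CAR-1(dSm) reads and 65 CAR-1(FL) reads, and the neighbour that abuts it held 335 and 63. Abutting peaks can hold the same reads, so these values are not independent. For egl-3, the proprotein convertase that cuts neuropeptide precursors, the peak at V:10169608-10169663 held 222 and 53 reads. For cab-1, a neuronal gene, the peak at X:12199960-12199999 held 150 and 32. These peaks were chosen for a higher CAR-1(dSm) value, so their direction is a description.

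The largest −log10 p values outside loci were past unc-54, the major myosin heavy chain of body-wall muscle. The peak at I:14856141-14856159 (minus strand, 11 bases past the locus) held 711 CAR-1(dSm) reads (660 to 765) and 147 CAR-1(FL) reads (124 to 173), 3.56-fold higher in CAR-1(dSm), with a −log10 p of 49.7. The next, at I:14856111-14856140, held 589 and 107, 4.05-fold higher. Further on, peaks from 108 to 188 bases past the locus held 659 and 182, 602 and 173, and 234 and 38. All 5 CAR-1(dSm) peaks passed a log2 fold of 1, and the lone CAR-1(FL) peak there was 2.69-fold lower in CAR-1(FL).

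Peaks within unc-54 did not go the same way. Of 53 CAR-1(FL) peaks inside the locus 41 were higher in CAR-1(FL), and of 59 CAR-1(dSm) peaks 47 were, with medians of CAR-1(FL) over CAR-1(dSm) of 0.14 and 0.10. A single peak in each list was below −1. Both cross the 3′ edge of the locus at base 14856169 and so counted as inside, I:14856155-14856253 in the CAR-1(FL) list, at −1.81, and I:14856160-14856247 in the CAR-1(dSm) list, at −1.77 with a −log10 p at the authors' cap of 400. Past the edge, the log2 folds of the 5 CAR-1(dSm) peaks over CAR-1(FL) ran from 1.36 to 2.18. Past the last unc-54 peak the same strand held 2 more CAR-1(dSm) peaks, nearest to the convertase-like gene aex-5, with 643 reads against 178 and 116 against 27. The unc-54 3′ end is widely used as the 3′ end of transgenes in this species. The sources used here do not say whether either strain carries it in a transgene, and its part in these values was not tested.

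The same medians were taken at other loci. Over 1140 loci with at least 4 same-strand downstream peaks and 4 inside peaks, both lists together, the median of CAR-1(FL) over CAR-1(dSm) was −0.31 outside and −0.24 inside. The median difference, outside minus inside, was −0.03 (interquartile range −0.32 to 0.24). Pearson's r over these loci was 0.50 and Spearman's rho 0.39, given as a description since all loci share both libraries and their depth.

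**Figure D5:**
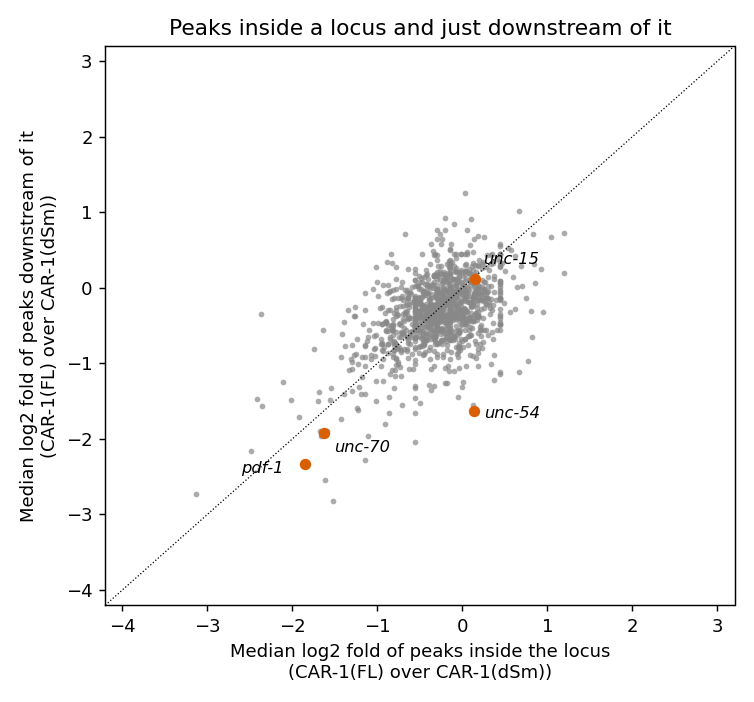
Median log2 fold of CAR-1(FL) over CAR-1(dSm) of the same-strand peaks downstream of a locus (vertical axis) against that of the peaks inside it (horizontal axis), 1 point per locus for 1140 loci; the dotted line marks equal values. The locus unc-54 lies far below the line, at 0.13 inside and −1.63 downstream.

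Some loci with CAR-1(dSm) peaks past a log2 fold of 1 are given here with their inside peaks; the choice fixed the direction of their outside medians. The medians outside and inside were −2.33 and −1.85 for pdf-1, −1.56 and −2.36 for egl-3, −2.16 and −2.49 for nlp-13, and −1.38 and −1.69 for cab-1. For sbt-1, the 7B2 chaperone of the EGL-3 convertase, they were −2.26 and −2.04 with 2 peaks downstream. For unc-70 the pooled medians were −1.92 and −1.63, but its inside peaks were mixed: 14 CAR-1(dSm) peaks and 2 CAR-1(FL) peaks inside the locus passed a log2 fold of 1, each in its own direction.

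The loci that differed most between inside and outside went both ways. At 32 loci the outside median was lower by at least 1, led by F27D4.4 at −1.78, unc-54 at −1.76 and M05B5.2 at −1.74. At 16 it was higher by at least 1, led by rab-37, a small GTPase gene of secretion, at 2.01 and tol-1, the Toll-like receptor gene, at 1.38. Apart from unc-54, which had 112 inside peaks, and tol-1, which had 58, these rested on 4 or 5 peaks downstream and at most 9 inside. These values pool both lists, so the mix of lists enters them. The inside peaks of rab-37 were all from the CAR-1(dSm) list, where its medians were −0.79 outside and −2.36 inside. For M05B5.2 they were −0.72 outside and 0.77 inside in the CAR-1(FL) list, but −0.97 and −0.82 in the CAR-1(dSm) list.

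The highest −log10 p values of the CAR-1(FL) list were lower. The first, 8.24, was by K07B1.8 (V:9340442-9340556, minus strand, 94 bases away), with 102 CAR-1(FL) reads (83.2 to 124) and 53 CAR-1(dSm) reads (39.7 to 69.3), 2.62-fold higher in CAR-1(FL). The next were past unc-15, the paramyosin gene of muscle, with 385 and 378 reads (1.39-fold per library read, I:7376895-7376955), and past hrde-1, which encodes a nuclear Argonaute of the germline, with 96 and 68 (1.92-fold, III:4172473-4172567). The last 2 lay past clec-88, a C-type lectin domain gene, with 65 and 43 reads at II:6366582-6366643 (2.06-fold) and 31 and 16 in the peak that abuts it (2.64-fold). At clec-88 the peaks inside the locus leaned the same way, with a median of 1.13 against 1.22 for its 3 peaks downstream. At unc-15 both medians were near 0, at 0.12 outside and 0.15 inside, and at hrde-1 they had opposite signs, at 0.15 and −0.51.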

How the data were processed

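The authors deposited 1 peak list per library, in which, judged from the values, the first score is the authors' −log10 p, capped at 400, and the second the authors' log2 fold over the other library. The deposited FPKM tables (Cufflinks layout, per the file headers) gave the locus bounds, the same in both. UMI-tools, cutadapt, STAR, SAMtools and the build ce10 are named in the submitters' processing notes; the sources used here name no peak caller.

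Mitochondrial peaks were left out. The folds fit ratios of whole numbers under totals of 4022150 CAR-1(FL) reads and 5470606 CAR-1(dSm) reads, checked on 45 Fisher p-values. From these, both libraries' reads were recovered for 2261 of 2352 CAR-1(FL) peaks tried (96.1%) and 6336 of 6339 CAR-1(dSm) peaks (99.95%), to a relative tolerance of 0.0001; none was tried at a −log10 p of 0, and a 1 in the other library may stand for 0. Placement and recovery were tested on simulated data. With 1 library per group no p was computed.

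Peaks named were those past both thresholds, the 5 next by −log10 p, the 3 farthest and the 3 widest per list, and the 5 largest clusters, with the 5 loci nearest to the most peaks. Others were named for their family or after their values were seen. Members and lists were chosen with earlier results of these data known. Python 3.11.15, numpy 2.4.6, pandas 2.3.3, scipy 1.17.1 and matplotlib 3.10.9 were used.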

Additional observations from a re-analysis of the deposited data

How the results depend on the processing

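Of 44 values under an alternative, 22 stayed within 1.5 times, the counting interval or the interval of the median of the value reported. Those that moved come first, for CAR-1(FL), then CAR-1(dSm). With loci widened by 100 bases, 4259 and 5389 peaks lay outside, and by 1000 bases 300 and 444. Among peaks with a −log10 p of at least 3, 4 and 306 lay outside. These were 0.709% and 10.6% of such peaks, beside 8.92% and 8.72% over all nuclear peaks. Of these 4 and 306, 25% and 51.3% were on the plus strand, with median widths of 78.5 and 45 bases. Downstream on the same strand were 100% of 3 and 86.0% of 279 with a set locus strand. At least 1000 bases away, 51.3% of the CAR-1(FL) peaks were on the plus strand. From the peak midpoint, the median distance was 157 and 152 bases. At a log2 fold of 2 the CAR-1(dSm) list had 65 peaks past the thresholds, and at 1 the lists had 2 and 217. Requiring 50% overlap, 75.6% and 56.8% were shared. A stricter strand rule, added after seeing the data, gave 85.3% and 86.0% downstream on the same strand. Among values that did not move, the 217 CAR-1(dSm) peaks became 216 without those between rrn-2.1 and rrn-1.2, and 207 without those beyond 1000 bases (both added after seeing the data). With only loci of at most 100000 bases, 8456 CAR-1(FL) and 11193 CAR-1(dSm) peaks lay outside, within 1.5 times. Reads set the limit for single peaks: over peaks whose reads were recovered, 2261 of 6949 and 6336 of 9169, the median was 11 CAR-1(FL) and 21 CAR-1(dSm) reads. Peaks at a −log10 p of 0, 66.2% and 30.9%, were not tried.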

Other observations

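Further loci with at least 3 CAR-1(dSm) peaks past a log2 fold of 1 were chosen after their values were seen. Among synaptic genes, snt-4, a synaptotagmin, had 4 such peaks, with 116 reads in CAR-1(dSm) against 34 in CAR-1(FL) at I:6440927-6440980. Its peak at I:6436103-6436112 lay 41 bases before the locus and held 52 against 11. Past ric-4, the SNAP-25 of the release machinery, 3 peaks held 79 against 14, 53 against 10 and 46 against 11. Past casy-1, the calsyntenin gene, 3 held 127 against 25, 109 against 21 and 89 against 19. The gene gpb-1, the beta subunit of heterotrimeric G proteins, had 4, with 270 against 79 at II:11743719-11743790, and sup-26, an RNA-binding protein gene, had 4, with 262 against 89 at III:4276362-4276437.

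For most peaks outside loci, the nearest locus was below an FPKM of 1. The nearest locus had an FPKM of at least 1 for 2398 CAR-1(FL) peaks (34.5%) and 3109 CAR-1(dSm) peaks (33.9%). Of all 41560 names in the tables, each counted once, 8.38% and 8.09% did. The 16118 peaks had 5188 nearest loci, and a locus near many peaks counts once per peak. The 2 kinds of share are thus unlike, and nearest loci counted once each were not compared. It was listed at 0 for 24.7% and 21.1% of the peaks. Peaks inside loci were not compared. Whether the FPKM values count the pulled-down RNA itself was not tested.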
